A study of Mus musculus with 8 samples.

Results

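The core pluripotency factors described here are 10 genes, Pou5f1, Nanog, Esrrb, Tfcp2l1, Klf2, Klf4, Klf5, Zfp42, Dppa5a and Utf1, picked by gene symbol from the 14954 genes of the deposited expression table. All 10 were in the table. The 8 RNA-seq libraries came from cortical-type neural progenitor cultures made in the dish from mouse embryonic stem (ES) cells, and the study asked which transcripts change when the transcriptional repressor Bcl6 is raised in them. Every culture was of the A2lox.Cre Bcl6 line, 1 ES cell line with a tetracycline-inducible Bcl6, and every culture was at day 12 of differentiation. The line had been kept in serum with leukemia inhibitory factor (LIF) on irradiated mouse embryonic fibroblasts, then plated on gelatin and moved to a defined medium (DDM) with cyclopamine, a blocker of hedgehog signalling, at 400 ng/ml from day 2 until day 10. The 4 control cultures received DMSO and the 4 Bcl6-induced cultures 1 µg/ml doxycycline, both for 24 h. No group received doxycycline without inducible Bcl6, so an effect of the drug and an effect of Bcl6 cannot be told apart. The labels number the cultures of each group as differentiations 1 to 4 and say no more on their independence, so the p-values speak only for the spread among these 8 libraries.

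Pou5f1 encodes Oct4, the POU-domain factor without which the pluripotent state is lost. Nanog, Esrrb, Tfcp2l1 and the Krüppel-like factors Klf2, Klf4 and Klf5 form a mutually supporting circuit that is most active in the naive state, the state of the preimplantation epiblast that LIF and its effector Stat3 sustain in culture. Oct4 persists after the naive circuit is shut down and is present through the formative and primed epiblast, so the ratio of naive factors to Pou5f1 differs between these states. During neural differentiation the whole set is normally switched off.

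Promoter sequence is shown for 3 members: Pou5f1, whose mean was lower after induction, and Esrrb and Zfp42, which were higher and whose windows held the rarer motif matches. The sequences are RefSeq's for GRCm38.p6 (the mm10 genome), run 5′ to 3′ on the gene's strand from 250 to 31 bases before the start of transcription, and capitals mark every match to the motifs searched.
Pou5f1, chr17:35505782-35506001, plus strand: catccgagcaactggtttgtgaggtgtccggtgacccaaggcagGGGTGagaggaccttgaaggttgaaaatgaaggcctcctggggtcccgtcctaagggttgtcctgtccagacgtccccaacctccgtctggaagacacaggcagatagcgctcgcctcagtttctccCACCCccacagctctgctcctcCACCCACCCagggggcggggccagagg
Esrrb, chr12:86360867-86361086, plus strand: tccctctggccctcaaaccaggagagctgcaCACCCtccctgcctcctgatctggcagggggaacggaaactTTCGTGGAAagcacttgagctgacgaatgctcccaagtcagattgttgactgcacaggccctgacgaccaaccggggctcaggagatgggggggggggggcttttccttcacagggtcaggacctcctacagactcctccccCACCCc
Zfp42, chr8:43307040-43307259, minus strand: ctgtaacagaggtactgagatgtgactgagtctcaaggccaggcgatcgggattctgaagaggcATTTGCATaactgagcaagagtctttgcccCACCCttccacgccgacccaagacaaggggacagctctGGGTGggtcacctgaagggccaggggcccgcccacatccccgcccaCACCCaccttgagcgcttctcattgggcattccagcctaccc
The motifs were the octamer ATTTGCAT read by POU factors, the palindrome TTCNNNGAA read by STAT proteins and sharing its ends with the BCL6 site, the box CACCC read by Krüppel-like factors, and TCAAGGTCA, read by ESRRB. Both strands were searched in windows of 300 bases, from 250 before to 50 after each start, and the RefSeq table gave 11 such windows for 8 of the 10 members, with no entry for Klf5 or Dppa5a. The octamer stood in 1 of the 11 windows, at position -186 from the Zfp42 start, and in 1.74% of all 32851 promoter windows. The palindrome also stood in 1 of the 11, as TTCGTGGAA at position -178 from the Esrrb start, and in 8.30% of all windows. The short CACCC box was in 9 of the 11 member windows and in 57.5% of all windows. The ESRRB letters were in 0 member windows and in 0.423% of all windows. These are matches of letters in short windows and carry no measurement of binding.

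Bcl6 itself rose from 6.01 to 7.12 CPM (the value relative to its library's total) in the controls to between 325 and 427 CPM in the induced libraries, which is 5.90 ± 0.10 (SE) as a log2 fold change (adjusted p = 6.8e-11). The libraries rested on 9.42 M to 9.74 M reads in the controls and 10.34 M to 15.03 M in the induced group. These totals were recovered from the deposited values and cover the genes of the table. Of all 14954 genes, 1019 (6.81%) passed the limma test at an adjusted p under 0.05, 681 higher and 338 lower. Neural progenitor markers were present in the controls, Nes averaging 282, Sox1 44.5 and Pax6 20.8 CPM. Control 1 stood apart from the other controls: over 11859 genes the Spearman rho between transcript length and its deviation from the control mean was -0.74, compared with 0.20 to 0.55 in controls 2 to 4 and -0.31 to 0.24 in the induced libraries.

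All 10 factors were detected in every library, with 207 reads (Klf5, control 1) to 6539 reads (Pou5f1, induced library 1) behind each value. Values were also divided by the kilobases of each gene's longest protein-coding transcript, or its longest transcript where it had none. Every library was scaled to the same sum. On that scale Dppa5a and Pou5f1 led the set in the controls at 1111 ± 71.6 and 995 ± 76.8 (SD, n = 4). Those levels exceeded 99.3% and 99.2% of the genes in the table. Nanog followed at 198 ± 24.1, Utf1 at 162 ± 30.8, Zfp42 at 107 ± 24.0, Klf2 at 65.1 ± 11.4, Esrrb at 60.9 ± 11.6, Klf4 at 26.03 ± 4.40, Tfcp2l1 at 22.6 ± 8.98 and Klf5 at 19.92 ± 3.84. In that order the control values of Nanog and Utf1, Utf1 and Zfp42, Klf2 and Esrrb, Klf4 and Tfcp2l1, and Tfcp2l1 and Klf5 overlapped, while the other neighbours were separate. The order depends on the transcript length taken, 619 bases for Dppa5a and 9269 for Tfcp2l1. In CPM the control means were 538 for Pou5f1, 272 for Dppa5a and 81.55 for Tfcp2l1. Nanog and Utf1 exceeded 94.2% and 92.15% of the genes, and Zfp42, Klf2 and Esrrb 87.1%, 77.8% and 76.3%. Klf4, Tfcp2l1 and Klf5 stood near the middle, above 54.5%, 50.8% and 47.3%. The cultures labelled cortical progenitors thus held pluripotency transcripts beside the neural markers, abundant for Dppa5a, Pou5f1, Nanog and Utf1. In bulk RNA, more cells of a kind and more RNA per cell cannot be told apart.

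After Bcl6 induction, 5 of the 10 factors rose: Nanog, Esrrb, Klf2, Klf4 and Zfp42, by 0.44 to 0.62 on the log2 scale. None fell at the same threshold. Of all 14954 genes tested, 4.55% were called higher and 2.26% lower. The factors had been chosen with earlier results of these data known, so the counts beside all genes are a description. The median log2 fold change was 0.47 over the 10 factors and 0.03 over all genes. In 6 of the 10, the 5 named and Tfcp2l1, every induced library lay above every control, which held for 10.7% of all genes, and 0 of the 10 lay wholly lower, against 6.17% of all genes. The count of 5 changed when single libraries were left out, to 2 without control 2, induced library 1 or induced library 2. It was 3 without induced library 3 or 4, 4 without control 3 and 6 without control 1. The number of all genes called higher, 681 with all libraries, changed too. It was 266 without control 2, 211 without induced library 1 and 243 without induced library 2. Without induced libraries 3 and 4 it was 451 and 506, without control 3 591 and without control 1 1146.

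**Figure D1:**
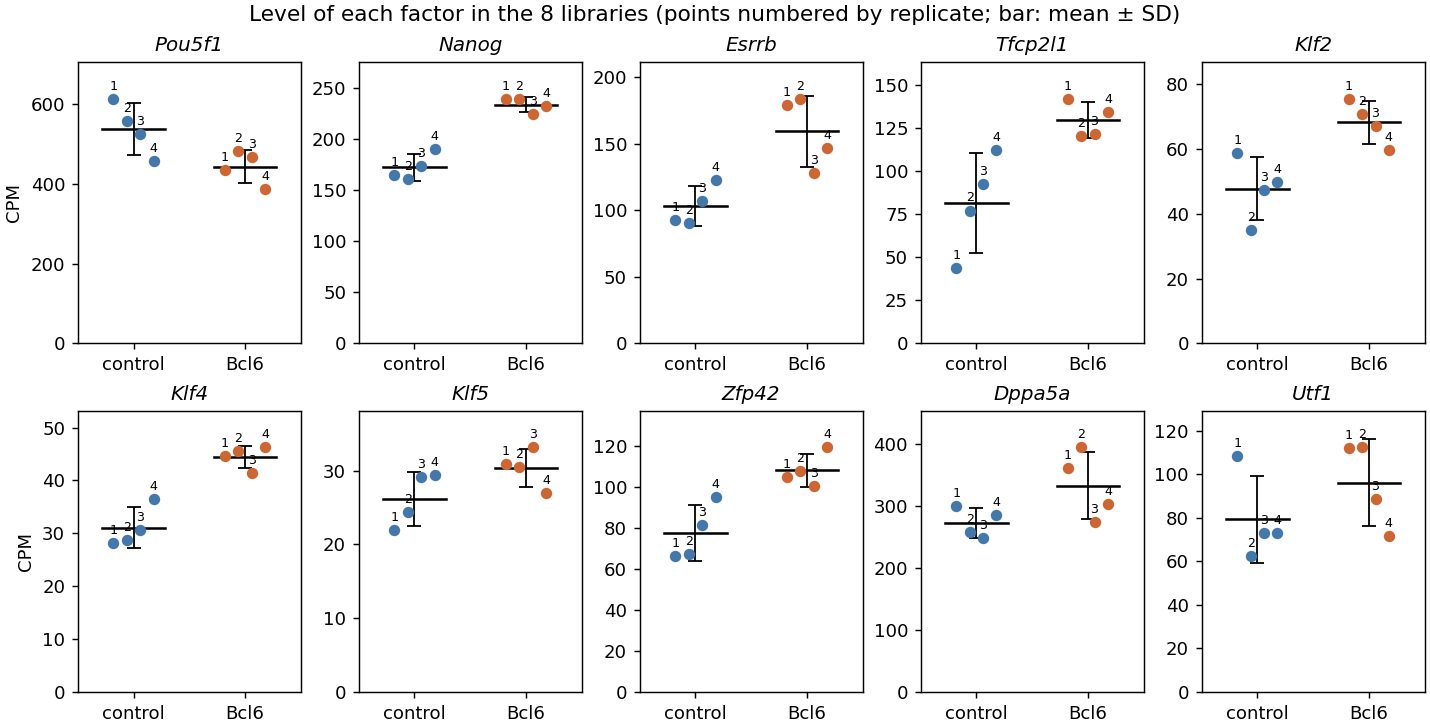
Level of each factor in CPM (vertical axes, each from 0) in the 4 control and 4 Bcl6-induced libraries. Points carry the differentiation number, and bars give the mean and the SD; the groups are separate for Nanog, Esrrb, Tfcp2l1, Klf2, Klf4 and Zfp42, whereas the Pou5f1 panel runs the other way with overlapping groups.

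Pou5f1 (ENSMUSG00000024406, chromosome 17, 35506018 to 35510772, plus strand, mm10) stood at 613.5, 558, 525 and 456 CPM in controls 1 to 4 and at 435, 483, 467 and 388 CPM in induced libraries 1 to 4. Control 4 lay within the induced range, and the other 3 controls lay above every induced library. The means were 538 ± 65.7 and 443 ± 42.0 CPM (SD, n = 4), or -0.28 ± 0.10 (SE) on the log2 scale, 95% interval -0.50 to -0.05. The adjusted p was 0.13, so Pou5f1 was not called. At an unadjusted p under 0.05 by limma it was the only member on the lower side, where 1330 of all 14954 genes lay. Its adjusted p was 0.034 once each library's trend on transcript length and GC content was taken off (log2 fold change -0.30).

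Nanog (ENSMUSG00000012396, chromosome 6, 122707489 to 122714633, plus strand), the homeodomain factor that stabilizes self-renewal, was the most tightly grouped of the called members. Its controls read 165, 161, 173 and 190 CPM and its induced libraries 239, 239, 224 and 232 CPM. The groups did not overlap, and the spread over the induced libraries was small beside the difference. Its log2 fold change was 0.44 ± 0.07 with an adjusted p of 0.0059, and the call was kept without any 1 library, the adjusted p reaching 0.033 at most.

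Esrrb (ENSMUSG00000021255, chromosome 12, 86361117 to 86521628, plus strand), an orphan nuclear receptor that acts downstream of Nanog, had the largest rise among the called members. It stood at 92.5, 90.1, 107 and 122 CPM in controls 1 to 4 and at 179, 184, 128 and 147 CPM in induced libraries 1 to 4. Induced library 3 was only just above control 4, and induced libraries 1 and 2 were far above all controls. The rise was 0.62 ± 0.13 on the log2 scale with an adjusted p of 0.021. The call was lost without control 2, induced library 1 or induced library 2, with adjusted p of 0.075, 0.077 and 0.072.

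Tfcp2l1 (ENSMUSG00000026380, chromosome 1, 118627945 to 118685168, plus strand), a Grainyhead-like factor reached by the LIF and Stat3 pathway, had the largest fold change of the set and the widest spread. The controls read 43.6, 77.2, 92.7 and 113 CPM, the induced libraries 142, 121, 122 and 135 CPM. Control 1 was far below the other controls, and all induced libraries were above all controls. The log2 fold change was 0.75 ± 0.23, with a 95% interval of 0.25 to 1.253, and was not called at an adjusted p of 0.076. Its longest protein-coding transcript, at 9269 bases, is the longest of the set. Control 1 has the strongest negative trend with transcript length (rho -0.74, with -0.31 in induced library 2). The part of length in its control 1 value was not tested gene by gene. Without control 1 the log2 fold change was 0.48 and the adjusted p 0.023, and with the trend on length and GC taken off in every library they were 0.60 and 0.0065. Tfcp2l1 was also called without control 4, with a log2 fold change of 0.93 and an adjusted p of 0.033.

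Klf2, Klf4 and Klf5, zinc-finger factors with overlapping roles in ES cell self-renewal, did not give the same result. Klf4 (ENSMUSG00000003032, chromosome 4, 55527143 to 55532466, minus strand) read 28.2, 28.7, 30.7 and 36.6 CPM in controls 1 to 4 and 44.6, 45.5, 41.4 and 46.3 CPM in induced libraries 1 to 4. Its groups were well apart, and the log2 fold change of 0.52 ± 0.10 (adjusted p = 0.012) remained called without any 1 library, with an adjusted p of 0.048 at most. Klf2 (ENSMUSG00000055148, chromosome 8, 72319033 to 72321656, plus strand) read 58.8, 35.1, 47.3 and 49.8 CPM in controls 1 to 4 and 75.5, 70.7, 67.1 and 59.7 CPM in induced libraries 1 to 4. Induced library 4 was barely above control 1, and control 2 was low.

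The log2 fold change of Klf2 was 0.53 ± 0.14 with an adjusted p of 0.046, close to the threshold. It was called in 1 of the 8 comparisons that left out a library, the one without control 1, and the adjusted p reached 0.15 without induced library 1. Median-of-ratios and upper quartile scaling of the libraries also ended the call, with adjusted p of 0.053 and 0.066. Klf5 (ENSMUSG00000005148, chromosome 14, 99298691 to 99315036, plus strand), the Krüppel-like factor also needed in trophectoderm, read 22.0, 24.3, 29.1 and 29.5 CPM in controls 1 to 4 and 30.97, 30.5, 33.2 and 26.9 CPM in induced libraries 1 to 4. The groups overlapped through induced library 4. Its log2 fold change was 0.22 ± 0.11, with a 95% interval of -0.03 to 0.47 and an adjusted p of 0.27. The differences in fold change among the 3 Krüppel-like factors were not tested.

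Zfp42, Dppa5a and Utf1 are often used as markers of the undifferentiated state rather than as its drivers. Zfp42 (ENSMUSG00000051176, chromosome 8, 43295063 to 43306980, minus strand) encodes the zinc-finger protein Rex1, which is lost early when ES cells leave the naive state. It read 66.1, 67.1, 81.4 and 95.1 CPM in controls 1 to 4 and 105, 108, 100.1 and 119 CPM in induced libraries 1 to 4. Control 4 was only slightly under induced library 3, and no values crossed. The log2 fold change was 0.49 ± 0.12 with an adjusted p of 0.031, and it stayed called in 3 of 8 comparisons with a library left out, those without control 1, 3 or 4. The highest of the other adjusted p was 0.10, without control 2.

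Dppa5a (ENSMUSG00000060461, chromosome 9, 78367052 to 78368177, minus strand), an RNA-binding KH-domain protein of ES and germ cells, read 299, 258, 247.5 and 285 CPM in controls 1 to 4 and 360.1, 394, 273 and 303 CPM in induced libraries 1 to 4. Induced library 3 lay inside the control range. The log2 fold change was 0.28 ± 0.11 (95% interval 0.03 to 0.53, adjusted p = 0.17). Utf1 (ENSMUSG00000047751, chromosome 7, 139943789 to 139945112, plus strand), a chromatin-associated factor of ES cells, read 108, 62.5, 73.2 and 73.0 CPM in controls 1 to 4 and 112, 112, 88.5 and 71.4 CPM in induced libraries 1 to 4. Induced library 4 was under 3 of the 4 controls and control 1 was close to the highest induced values. The log2 fold change was 0.28 ± 0.18, with an interval of -0.11 to 0.68 and an adjusted p of 0.36.

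Neither Dppa5a nor Utf1 was called in any of the 8 comparisons that left out a library. Dppa5a was called with the trend on length and GC taken off (log2 fold change 0.38, adjusted p = 0.032). When limma weighted the libraries by their quality, control 1 received the lowest weight, 0.19, and Utf1, Dppa5a and Tfcp2l1 joined the called members, with log2 fold changes of 0.51, 0.35 and 0.51 and adjusted p of 0.025, 0.049 and 0.028. Pou5f1, Nanog and Dppa5a have processed pseudogenes elsewhere in the genome, with which reads could be shared, so their values are less certain in that respect.

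**Figure D2:**
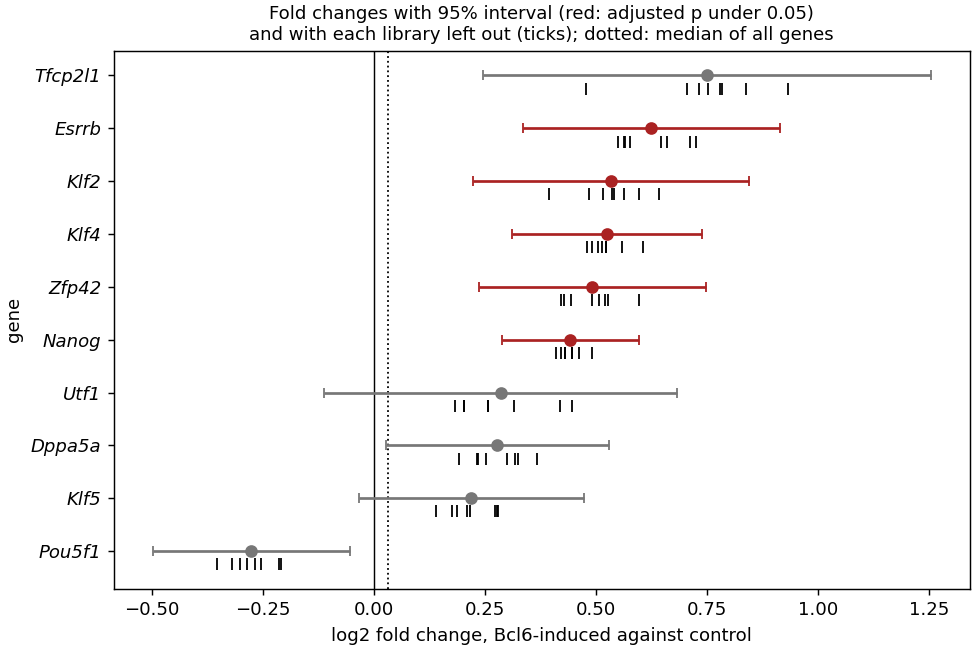
Log2 fold change of each factor, Bcl6-induced against control (horizontal axis), with its 95% interval and, as ticks underneath, the value with each library left out; red marks an adjusted p under 0.05. No tick crosses 0, and the Tfcp2l1 ticks run from 0.48 to 0.93.

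Set against Pou5f1 of the same library, the naive factors made up a larger share after induction. Nanog was at 26.9%, 28.8%, 33.0% and 41.7% of the Pou5f1 CPM in controls 1 to 4 and at 54.95%, 49.4%, 48.0% and 59.8% in induced libraries 1 to 4. Esrrb went from 15.1%, 16.1%, 20.4% and 26.8% to 41.1%, 38.03%, 27.4% and 37.8%. Both pairs of groups were separate, and among the controls the share was highest in control 4, the control with the least Pou5f1.

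In all, 7 of the 9 other factors were separate in this way, Klf5 and Dppa5a being the 2 whose groups overlapped, and on the same scale 23.3% of all genes lay higher in every induced library. As mean percent of Pou5f1 (± SD, n = 4), Klf2 stood at 8.95 ± 1.94 and 15.4 ± 1.35, Klf4 at 5.90 ± 1.504 and 10.1 ± 1.34, and Zfp42 at 14.8 ± 4.51 and 24.6 ± 4.20 in controls and induced libraries. Tfcp2l1 stood at 15.8 ± 7.34 and 29.6 ± 4.81, and Utf1 at 14.7 ± 2.78 and 21.6 ± 3.53. Dppa5a stood at 51.1 ± 7.57 and 75.2 ± 11.3, and Klf5 at 4.99 ± 1.27 and 6.87 ± 0.38.

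**Figure D3:**
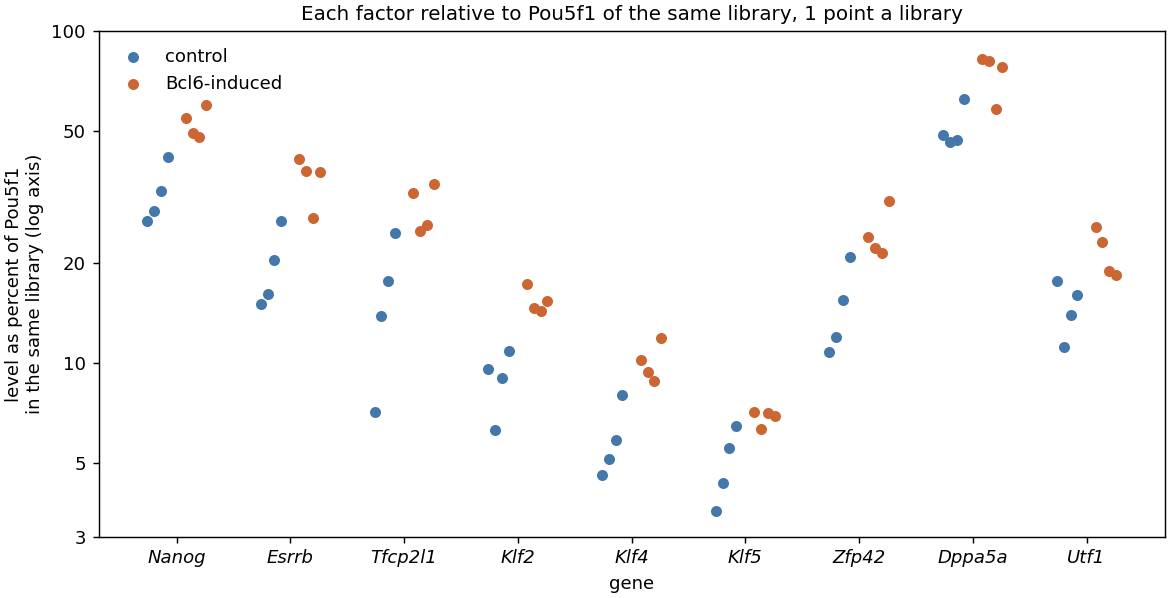
Level of the 9 other factors as percent of Pou5f1 in the same library (vertical log axis), 1 point a library, controls left and induced libraries right for each gene. The groups overlap for Klf5 and Dppa5a and are separate for the other 7.

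For the test, the log2 value of Pou5f1 was subtracted from that of every gene in the same library and limma was run over the remaining 14953 genes. Of the 9 factors, 8 rose relative to Pou5f1, with log2 fold changes from 0.55 (Dppa5a, adjusted p = 0.025) to 1.02 (Tfcp2l1, 0.035). The values were 0.90 for Esrrb (0.013), 0.81 for Klf2 (0.011), 0.80 for Klf4 (0.015), 0.77 for Zfp42 (0.024), 0.72 for Nanog (0.012) and 0.56 for Utf1 (0.036). Klf5 was not called, at 0.50 with an adjusted p of 0.061. In the same test 17.1% of all genes were called higher and 0.515% lower, where every gene is measured against the same Pou5f1 values, whose mean was lower after induction, and the 9 tests share that reference. The count of 8 was 1 without control 2, where 2.63% of all genes were called higher, and 4 without induced library 4 (4.42%). It was 5 without induced library 2 (9.19%) and 0 without induced library 1. In that last fit limma called 1.90% of all genes higher at the adjusted threshold. There 9 of 9 factors had an unadjusted p under 0.05 by limma. The share of all genes at that threshold was not computed, so this count cannot be read as a result about the factors.

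On the scale per kilobase of transcript, the order of the set was nearly the same after induction: Dppa5a at 1405 ± 217, Pou5f1 at 852 ± 69.4, Nanog at 277 ± 8.06, Utf1 at 205 ± 40.5, Zfp42 at 154 ± 12.96, Esrrb at 97.0 ± 15.5, Klf2 at 96.7 ± 8.92, Klf4 at 38.5 ± 2.01, Tfcp2l1 at 36.7 ± 3.35 and Klf5 at 23.8 ± 1.90 (SD, n = 4). Mean Pou5f1 was 5.04 times mean Nanog per length in the controls and 3.08 times in the induced libraries. Against Tfcp2l1 the ratio went from 44.0 to 23.2.

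Within each group, the factors did not vary as 1 block. Over the 8 libraries, after each group's mean was taken off, Klf4 had a Pearson r of 0.94 with Zfp42 and with Nanog, Esrrb of 0.87 with Nanog, and Klf2 of 0.86 with Utf1. Pou5f1 had r of -0.88 with Zfp42, -0.81 with Klf4, -0.80 with Tfcp2l1, -0.65 with Nanog, -0.37 with Esrrb and -0.34 with Klf5, and of 0.61 with Utf1 and 0.24 with both Klf2 and Dppa5a. Each point is 1 library, so all genes of a point share its depth and quality, which differed between libraries. Control 1 held the highest Pou5f1, Utf1, Klf2 and Dppa5a of the controls and the lowest Klf4, Klf5, Zfp42 and Tfcp2l1. Control 4 held the lowest Pou5f1 and the highest Nanog, Klf4, Klf5, Esrrb, Zfp42 and Tfcp2l1. Control 1 is also the library with the strongest trend on transcript length, whose part in these correlations was not tested.

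**Figure D4:**
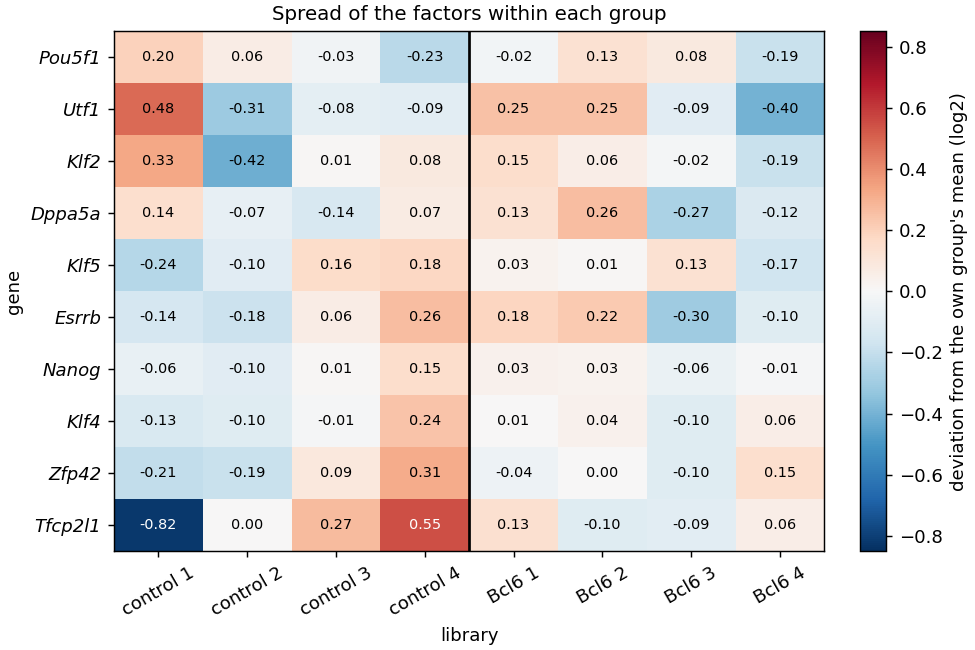
Deviation of each factor in each library from the mean of its own group (colour and printed value, log2), with controls left of the line and induced libraries right of it. In the control columns Pou5f1 goes from 0.20 to -0.23 while Tfcp2l1 goes from -0.82 to 0.55.

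By the same measure over 10437 genes with a mean of at least 10 CPM, the genes most like Pou5f1 were Gm1821, Pla2g7 and Trh (all r = 0.99). Those most like Nanog were Nr5a2 (0.99), Mfsd7c and AU018091 (both 0.98), those most like Zfp42 were Dazl, Itpripl2 and Nos1 (all 0.98), and those most like Esrrb were Rasgrp1 (0.99), Gpat2 (0.98) and Tpcn1 (0.97). For Tfcp2l1 they were Heatr5b (0.996), Cdon and Nup205 (both 0.99), for Utf1 Vasp, Fam43a and Rabac1 (all 0.99), and for Dppa5a Bcat1 (0.98), Fam114a1 and Grb7 (both 0.97). For the Krüppel-like factors they were Tpra1 (0.99), Mark4 and Erf (both 0.97) with Klf2, Parp12, Ddhd1 (both 0.98) and Mafk (0.97) with Klf4, and Ice2, Cand2 and Alkbh5 (all 0.95) with Klf5. With 8 libraries and so many genes, high values of r are common, and each is a description only.

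Among 30 other genes of the pluripotency network, 10 rose and 1 fell, where 4.55% of all genes were called higher and 2.26% lower. This list and those that follow were chosen with earlier results of these data known. Their counts beside all genes are therefore a description and no test. The list's median log2 fold change was 0.29 beside 0.47 for the 10 core factors. The 4 with the smallest adjusted p were the trophoblast and germ line factor Tfap2c, from 34.7 to 76.6 CPM (adjusted p = 1.1e-04), the RNA-binding protein L1td1, from 216 to 293 CPM (0.0025), the Nodal inhibitor Lefty2, from 40.1 to 73.3 CPM (0.0042), and the threonine-catabolizing enzyme Tdh, from 88.6 to 133 CPM (0.0062). The others that rose were Sall4, Tbx3, Dppa3, Dppa4, Dnmt3l and Mybl2, and the Nodal coreceptor Tdgf1 fell from 815 to 605 CPM (0.012). The HMG-box partner of Oct4, Sox2, averaged 257 CPM before and 255 CPM after induction (adjusted p = 0.97), and the RNA-binding protein Lin28a at 484 and 434 CPM (0.35). The list's summed level overlapped between the groups, at 3464 to 3662 and 3481 to 3837 CPM. The count of 10 was 4 without induced library 1 or 2, 5 without control 2 and 6 without induced library 3. In those fits 211, 243, 266 and 451 of all genes were called higher, beside 681 with all libraries.

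Of 9 genes of LIF and Stat3 signalling, the pathway that feeds Klf4 and Tfcp2l1, Bcl3 rose from 4.64 to 7.99 CPM (adjusted p = 0.025). None fell at that threshold, at which 4.55% of all genes were called higher and 2.26% lower. At an unadjusted p under 0.05 by limma, 4 of the 9 were higher and 1 lower, against 2216 and 1330 of all 14954 genes. Every induced library lay above every control for 3 of the 9 and below for 1, against 10.7% and 6.17% of all genes. That 1 was the LIF receptor gene Lifr, from 205 to 139 CPM (adjusted p = 0.058). Stat3 stood at 160 and 169 CPM (0.62) and its feedback inhibitor Socs3 at 42.8 and 47.6 CPM (0.49). The call of Bcl3 rested on single libraries, since the list's count was 0 without control 2, control 4 or induced libraries 1, 2 or 3. In those fits 211 (without induced library 1) to 596 (without control 4) of all genes were called higher, beside 681 with all libraries. Of 12 genes of the formative and primed states, Otx2, a homeodomain factor of the primed epiblast and the anterior neural plate, fell from 219 to 161 CPM (0.0055) and Sox3 from 30.8 to 14.5 CPM (0.015). None of the 12 rose by limma at the adjusted threshold (3 at an unadjusted p under 0.05). Sox3 is also a neural progenitor gene.

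Markers of other cell types moved with the core factors, and their part in the results was not tested. The share of all genes called higher was 4.55%, and 2.26% were called lower. Of 10 germ cell genes 6 rose, among them Tfap2c, Nanos3, from 1.10 to 3.41 CPM (adjusted p = 0.0035), Kit, from 90.3 to 145 CPM (0.015), and Prdm1, from 22.7 to 33.3 CPM (0.018), and the list's summed level went from 182 to 249 CPM in the controls to between 330 and 373 CPM in the induced libraries. Tfap2c, Dppa3 and Prdm14 are on both this list and the pluripotency list. The germ cell count was 2 without induced library 1, where 211 of all genes were called higher, beside 681 with all libraries. Of the 7 trophectoderm genes measured, 4 rose: Cdx2, Eomes, Krt8 and Krt18, and the sum went from 326 to 404 CPM to between 487 and 552 CPM. Of 7 epithelial genes Cdh1, Krt8 and Krt18 rose, with sums of 796 to 927 and 1034 to 1211 CPM. Of 3 streak and mesoderm genes T and Evx1 rose, with T going from 20.9 to 59.9 CPM (1.1e-04). Elf5 of the trophectoderm list, Tie1 of the endothelial list and Hand2, Mesp1, Mixl1 and Msgn1 of the mesoderm list had no row in the table.

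Neural markers moved in 2 directions, where 4.55% of all genes were called higher and 2.26% lower. Of 9 progenitor genes 6 fell, the 4 smallest adjusted p being those of Slc1a3, from 141 to 86.6 CPM (0.0018), Prom1, from 133 to 84.4 CPM (0.0069), Nes, from 282 to 189 CPM (0.028), and Fabp7, from 180 to 46.9 CPM (0.036). Induced libraries 1 and 2 stood apart from induced libraries 3 and 4 here, with Fabp7 at 9.47 and 13.98 against 76.6 and 87.4 CPM, and Nes at 153 and 152 against 217 and 234.5 CPM. Nanog, Esrrb, Klf2, Dppa5a and Utf1 were also higher in induced libraries 1 and 2 than in 3 and 4, whereas the other core factors were not. The relation between the 2 patterns was not tested. The count of 6 was 2 without control 2, control 4, induced library 1 or induced library 2, and 3 without control 3. In those fits 93, 239, 97, 107 and 277 of all genes were called lower, beside 338 with all libraries. Of 8 neuronal genes 6 rose, with sums of 830.4 to 1028 CPM among controls and 1363 to 1625 CPM among induced libraries. The progenitor sums were 1556 to 1976 and 1085 to 1428 CPM.

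The feeder cells on which the ES line had been kept could leave fibroblast RNA. Of 9 fibroblast genes 0 were called by limma (2 higher and 3 lower at an unadjusted p under 0.05), and their sum overlapped between the groups, at 564 to 736 and 609 to 735 CPM. Of 8 primitive endoderm genes 0 were called (5 higher at an unadjusted p under 0.05), with sums of 169 to 225 and 202 to 278 CPM. At that unadjusted threshold limma had 2216 of all 14954 genes higher and 1330 lower. Of 6 endothelial genes only Tek was called, lower, from 24.6 to 16.3 CPM (adjusted p = 0.028).

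**Figure D5:**
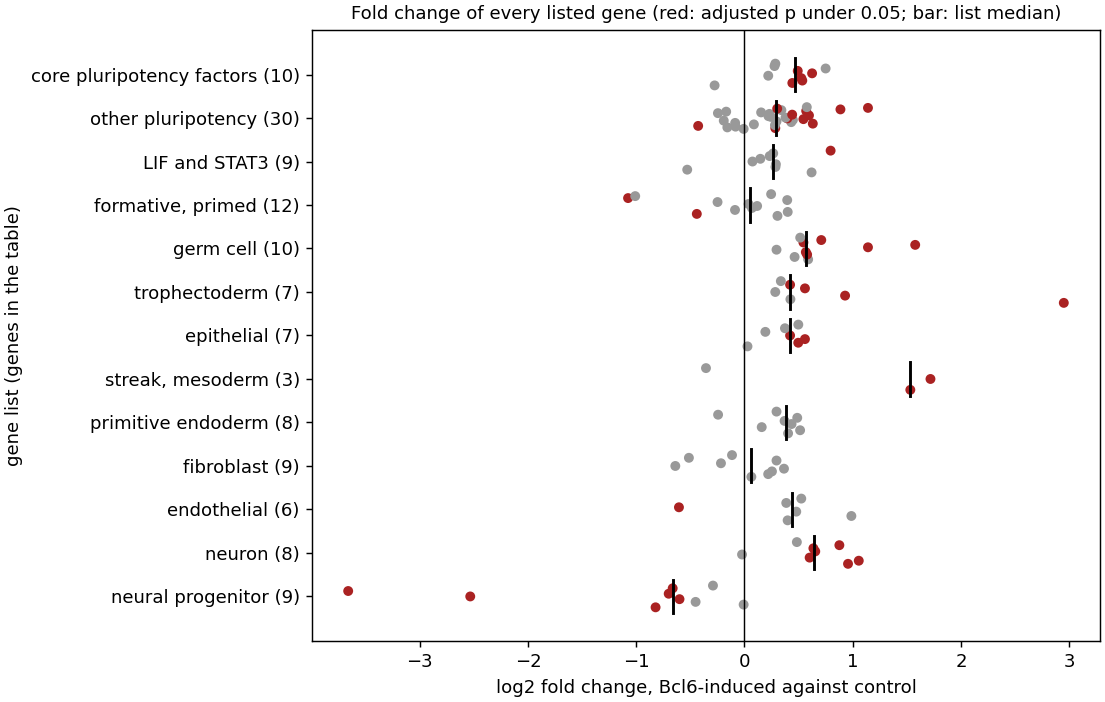
Log2 fold change of every gene of each list (horizontal axis, 1 point a gene), with red for an adjusted p under 0.05 and a bar at the list's median; the number of genes measured stands in parentheses. The core factors have a median of 0.47 with Pou5f1 alone under 0, and the neural progenitor list a median of -0.66.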

How the data were processed

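The submitters' processing notes name build mm10 and the tools STAR (2.5.3a), HTSeq (0.9.1) and edgeR (3.20.1) without saying what each did. Libraries were made with a stranded kit, per the labels' protocols. Whether counting used strand is not given in the sources used here. The deposited values are a score: each library's whole numbers add up to between 19.93 M and 19.96 M. They behave as reads scaled to a common size and rounded up. At least 99.8% of the lower values of a library sit exactly on multiples of 1 step after rounding up, and high values were left out of this check. The sum divided by that step gives a library's reads over the genes of the table. The deposited table holds 36 cells a line under 24 header names, because decimal commas had become column breaks. Values were read from cell 13 on 14953 lines and from the shifted place on 1. The deposited CPM columns (unit other) served only to find those cells, and the authors' statistics were not used.

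CPM here is a value divided by its library's total. The test was limma 3.58.1 in R 4.3.3 (trend on expression, no covariates) on log2(value + 1), 4 against 4 libraries, with Benjamini-Hochberg adjustment over all 14954 genes and a threshold of 0.05, and was tested on simulated data. Fold changes on this scale understate those of low genes. No count test was run, because the values are scaled. Transcript lengths and GC are those of the gene's longest protein-coding GENCODE M21 transcript, or its longest transcript where it had none (14924 genes). Promoters are RefSeq's. The genes named are the 10 factors, Bcl6, the called genes of each list where few and otherwise the 4 with the smallest adjusted p, and the 3 most similar genes per factor. Sox2, Lin28a, Stat3, Socs3, Lifr, Sox1 and Pax6 were named outside this rule, with their values known. The members and lists were chosen with earlier results of these data known. The outlier check of 1 listed gene is not reported here. Figures were drawn with matplotlib 3.10.9.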

Additional observations from a re-analysis of the deposited data

Results flagged for a closer look

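Over the 10 core factors, Bcl6 and the listed genes, 122 genes in 244 groups of 4 libraries, 14 groups held a library far from the other 3 by Dixon's test of the gap over the range at its 95% limit. Chance flags about 1 in 20 groups. None of the 14 was a core factor. Among the other pluripotency genes, Sall4 was at 126.2 CPM in control 2 against 135.9 to 136.5 CPM in the other controls, Lin28b at 92.89 CPM in control 1 against 115.6 to 119.6 CPM, and Sox2 at 232 CPM in induced library 4 against 261.8 to 263.9 CPM. Stat3 was at 149.6 CPM in induced library 4 against 172.7 to 176.5 CPM. Among formative and primed genes, Fgf5 was at 15.43 CPM in induced library 2 against 12.68 to 12.98 CPM, Etv4 at 24.9 CPM in induced library 2 against 23.5 to 23.71 CPM, and Foxd3 at 23.25 CPM in control 1 against 17.64 to 18.21 CPM. Cdx2 was at 0.4508 CPM in control 2 against 1.503 to 1.656 CPM, Eomes at 27.31 CPM in induced library 3 against 23.85 to 24.25 CPM, and Sox7 at 2.505 CPM in induced library 3 against 3.106 to 3.208 CPM. The fibroblast collagens Col1a2 and Col3a1 were at 167.6 and 313.4 CPM in control 4 against 122.8 to 128.7 and 245.7 to 254 CPM. Lum was at 17.84 CPM in induced library 1 against 14.58 to 15.04 CPM, and the endothelial gene Cdh5 at 0.8517 CPM in control 1 against 1.804 to 1.957 CPM.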

How the results depend on the processing

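No alternative turned the direction of any of the 10 factors. Genes called went from 1019 to 2507 with array weights, 1808 with the trend on transcript length and GC taken off, 1864 with that and the replicate block, and 308 to 1697 with 1 library left out. Factors called higher went from 5 to 8 with array weights, 7 after removal of the length and GC trend (also with the block), 4 with median-of-ratios or upper quartile factors, and 2 to 6 with 1 library left out. Factors called lower were 0, and 1 (Pou5f1) after removal of the length and GC trend, with or without the block. Factors called higher relative to Pou5f1 were 8 beside 17.1% of all genes, 0 without induced library 1 (1.90% of all genes) to 9 without control 4 (40.5%), and 9 after removal of the length and GC trend (37.1%, and 54.3% with the block). The split of called genes, 681 higher and 338 lower, became 536 and 424 with median-of-ratios factors, 501 and 474 with upper quartile factors, 904 and 904 after removal of the length and GC trend, and 925 and 939 after that removal with the block. The causes of these moves were not tested. Other pseudocounts and a minimum of 5 CPM changed no call of a factor.

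The labels do not say whether same-numbered libraries were paired. Over 11872 genes the correlation of their deviations was 0.03, 0.01, -0.03 and 0.37 for differentiations 1 to 4. The last was the highest of any control with any induced library, and not every library correlated best with its own number. These correlations cannot decide whether the numbers mark pairs, because the deviations also carry each library's trend on transcript length. With the replicate block 827 genes were called, 5 factors were called higher and 0 lower (1 at an unadjusted p under 0.05 by limma), and 9 were called higher relative to Pou5f1 beside 31.5% of all genes.

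The planned count models were not run, since the deposited values are scaled and rounded. The least covered value of a factor rested on 207 reads. The data come from 1 line, with no doxycycline control.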
